A study of Mus musculus with 10 samples.

Results

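The genes described here are those by which a cell brings proteins into the endoplasmic reticulum (ER), folds them there and answers ER stress. They were chosen by name: protein disulfide isomerases (Pdia genes and P4hb) and the oxidases Ero1l and Ero1lb, subunits of the Sec channel, of the translocon-associated protein complex, of signal peptidase and of the signal recognition particle, the main chaperones of the ER lumen, and the stress genes Atf4, Atf6, Ddit3, Xbp1 and Herpud1. In all, 42 of the 12791 genes in the authors' deposited table carried one of these names, and each of them is accounted for below.

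The cells were hematopoietic progenitors from the bone marrow of C57BL/6 mice, sorted as negative for lineage markers, positive for c-Kit and negative for Sca-1, and measured by bulk RNA sequencing. The labels give 10 libraries: 3 naive libraries from mice with no tumor, and, from mice bearing late-stage tumors of the mouse glioma line GL261 at week 4, 4 libraries of KDR-negative and 3 of KDR-positive progenitors. A GFP knockin at the gene of KDR, one of the receptors for vascular endothelial growth factor, marked the KDR-positive cells in the tumor-bearing mice, and about 20000 cells gave the RNA for sequencing. The labels do not say whether the naive mice carried the same reporter, whether each library came from its own mouse, or how old the mice were, so the authors' p-values may rest on technical spread.

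Results of 2 comparisons between groups make up the table. For each gene and comparison it lists a log2 fold change, the mean level as log2 CPM (read counts scaled to library size), a p-value and its adjusted value over all genes, and it has no value per library. Its headers name neither the groups nor the direction. Levels derived from the means and fold changes matched between the denominators of the 2 comparisons, with a median absolute deviation of 0.0020 log2 over 9044 genes, so the 3 groups are called the shared denominator group, the first numerator group and the second numerator group. The sources used here do not say which of them is naive, KDR-negative or KDR-positive. The gate gene Kit stood at 58.7 CPM in the denominator group, 38.8 CPM in the first numerator group and 60.3 CPM in the second, while Kdr itself stood at 0.817, 1.95 and 0.378 CPM. For neither gene did the authors' deposited table give an adjusted p under 0.05 in either comparison. In bulk samples, fewer cells of a type and less RNA per cell cannot be told apart.

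A protein bound for secretion, for a granule or for a membrane is caught on the ribosome by the signal recognition particle as its signal peptide emerges, is handed to the Sec61 channel, loses the signal peptide to signal peptidase, and folds in the lumen with the help of chaperones and of enzymes that form disulfide bonds. When unfolded protein builds up, the sensors IRE1 (Ern1), PERK (Eif2ak3) and ATF6 start the unfolded protein response: IRE1 splices the Xbp1 message, PERK slows translation and favors ATF4, and ATF6 is cut to release a transcription factor. Progenitors of granulocytes make large amounts of granule proteins and use this route heavily.

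In the first comparison the genes of ER entry and folding were mostly higher in the numerator group, but unevenly. At an adjusted p under 0.05 in the authors' deposited table, 23 of the 42 genes were higher and 1 was lower, that is 54.8% higher, where 18.8% of all genes were higher, 3.49% lower and 22.3% either by the same rule. Their median log2 fold change was 0.83, against -0.13 for all genes, with 36 of 42 above 0. Calreticulin (Calr) stood at the top, 4.22 times as high, and Pdia2 at the bottom. The 42 genes did not move as a block: for each of the 4 multi-subunit machines of protein entry, at least 1 subunit gene was past the threshold and at least 1 was not. These directions belong to the deposited scale. The derived CPM of all genes summed to 2127125 in the first numerator group and 756537 in the denominator group, 2.81 times as much in the former. The first sum is more than counts scaled to library size alone can reach, so CPM values here are levels on the deposited scale. At equal totals every log2 fold change would be 1.49 lower. That leaves 11 of the 42 genes above 0, among them Calr, Hspa5, Hsp90b1, Pdia3, Sec61b, Sec61g and Srp9.

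**Figure D1:**
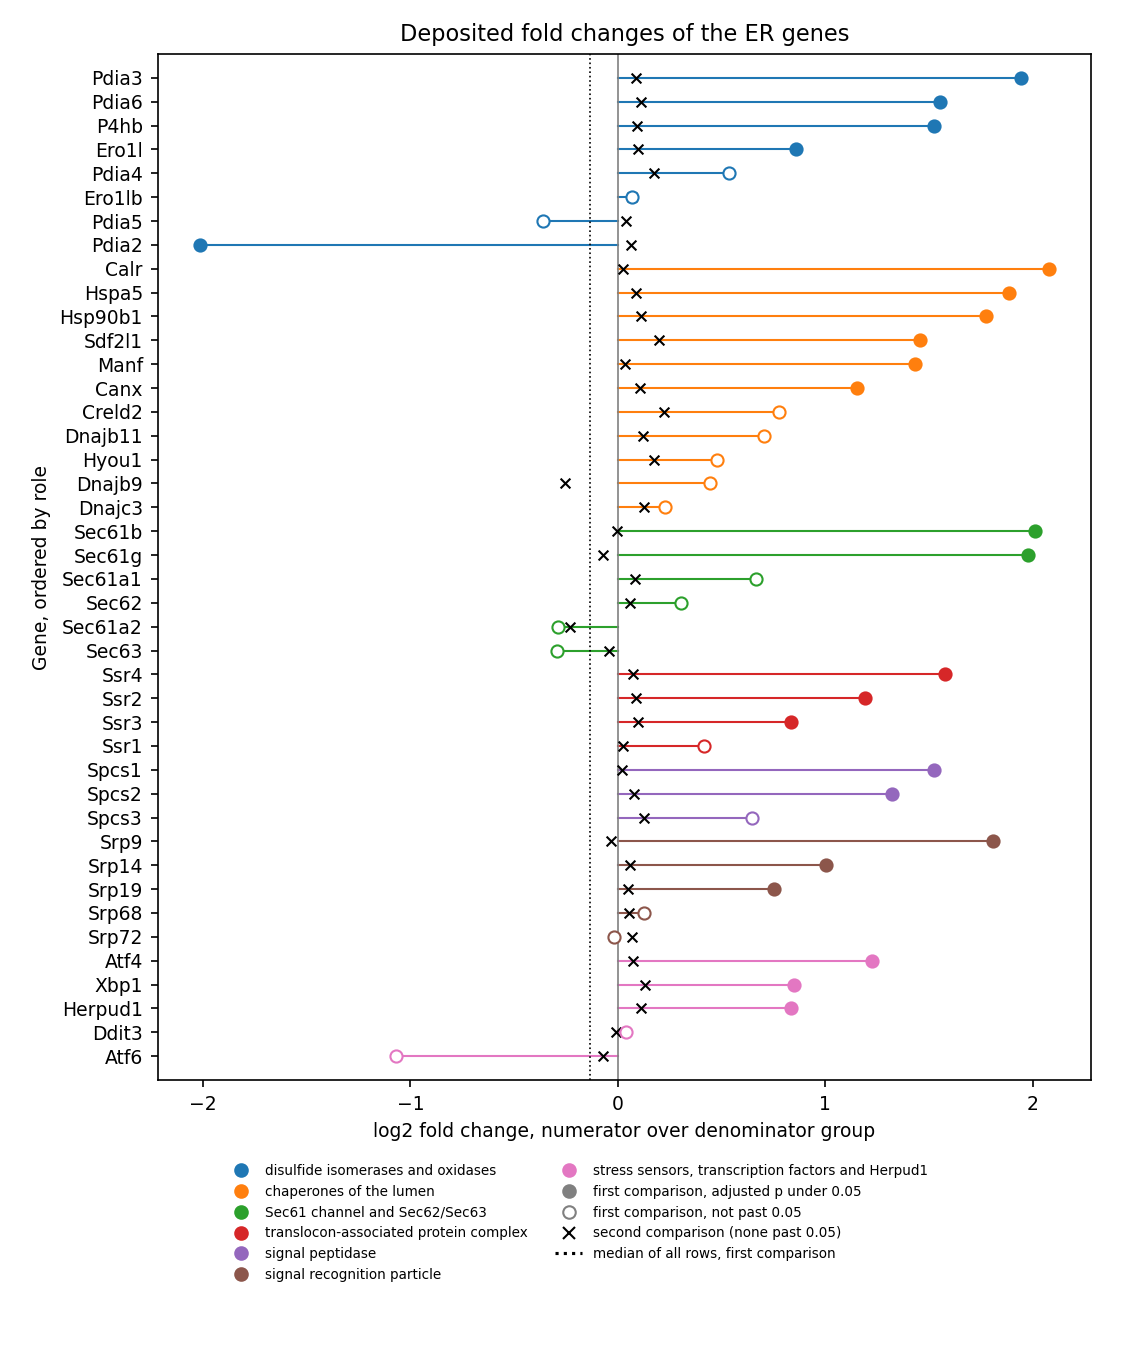
Log2 fold change (x axis) of each of the 42 ER genes (y axis, grouped by role) in the authors' deposited table; circles show the first comparison, filled where the adjusted p was under 0.05, and crosses the second comparison. Filled circles lie to the right for 23 genes and to the left for Pdia2 alone, whereas all crosses lie between -0.25 and 0.22.

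In the second comparison none of the 42 genes passed at an adjusted p of 0.05 in the authors' deposited table, where 0.109% of all genes did. None of the 42 had an unadjusted p under 0.05 either, the smallest being 0.45, for Dnajb9. The median log2 fold change was 0.07, with a range from -0.25 for Dnajb9 to 0.22 for Creld2, so the second numerator group and the denominator group had derived levels within these bounds of each other for every ER gene. Set against each other, the numerator groups differed by a median of 0.72 (log2, the difference of both deposited fold changes), for which no test can be had. The comparisons share their denominator group, so they do not stand for independent evidence.

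All 11 genes of lumenal chaperones and their helpers had a positive log2 fold change in the first comparison, with a median of 1.15, and 6 passed the test: Calr, Hspa5, Hsp90b1, Manf, Sdf2l1 and Canx. Calr, the calcium-binding lectin that holds glycoproteins until they are folded, had a derived level of 176 CPM in the denominator group, 179 CPM in the second numerator group and 743 CPM in the first. For Calr the authors' deposited table lists log2 fold changes of 2.08 in the first comparison, with an adjusted p of 8.7e-12, and 0.03 in the second. Hspa5, which encodes BiP, the Hsp70 of the ER and the keeper of the stress sensors, stood at 101 CPM in the denominator group, 108 CPM in the second numerator group and 374 CPM in the first. Its log2 fold change, as the authors' deposited table lists it, was 1.88 (adjusted p = 1.1e-09). The denominator and second numerator groups were thus close to each other for both genes, and the first numerator group stood apart.

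Hsp90b1, which encodes the Hsp90 of the ER (GRP94), went from 103 CPM in the denominator group to 353 CPM in the first numerator group, for which the authors' deposited table lists a log2 fold change of 1.78 (adjusted p = 2.1e-08). Manf, a small stress-induced protein of the lumen that can be secreted, stood at 36.0 CPM and 97.3 CPM, for which the authors' deposited table lists 1.43 (adjusted p = 7.2e-07). Sdf2l1, a partner of the Hsp40 proteins of the ER, had 1.46 there, and Canx, the membrane-bound relative of calreticulin, 1.15. The 5 chaperone genes that did not pass included Hyou1, the nucleotide exchange factor of BiP, at 0.48, and the BiP-assisting Hsp40 genes Dnajb11 at 0.71 and Dnajb9 at 0.44 in the authors' deposited table. For Dnajc3, also an Hsp40 of the lumen, the authors' deposited table lists 0.23 (adjusted p = 0.69), and for Creld2, just outside the threshold, 0.78 (adjusted p = 0.055). BiP itself was 3.69 times as high in the first numerator group, and its difference from the 3 Hsp40 genes was not tested. Relative to the median of genes of like level, Dnajb9 at 0.70 lay above Hspa5 at 0.50. With genes matched on level and transcript length the order was reversed, Dnajb9 at 0.57 and Hspa5 at 1.02.

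The enzymes that make disulfide bonds split. Of 8 genes, 4 were higher, 1 was lower and 3 did not pass, with a median of 0.70. Pdia3, which works on glycoproteins held by calnexin and calreticulin, went from 75.0 CPM in the denominator group to 288 CPM in the first numerator group, and its listed log2 fold change in the authors' deposited table was 1.94 (adjusted p = 8.0e-10). For P4hb, the classical disulfide isomerase, the authors' deposited table lists 1.52 (adjusted p = 8.8e-07) and for Pdia6 1.55 (adjusted p = 1.2e-06). The oxidase gene Ero1l, whose product recharges the isomerases, has 0.86 there (adjusted p = 0.031), while the authors' deposited table lists 0.07 (adjusted p = 1) for its relative Ero1lb. Pdia4 at 0.54 and Pdia5 at -0.36 did not pass. Pdia2, an isomerase best known from the pancreas, was the one lower gene of all 42. It stood at 12.8 CPM in the denominator group, 13.3 CPM in the second numerator group and 3.16 CPM in the first, and the authors' deposited table lists -2.02 for it (adjusted p = 0.021).

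Several chaperone and isomerase genes carry the ER stress response element (ERSE) in their promoters, the paired sites CCAAT and CCACG, 9 bases apart, at which NF-Y and ATF6 or XBP1 bind. The element was defined on promoters of this kind, so its presence there is background and not a result. RefSeq promoters of GRCm38.p6, from 250 bases before to 50 after a start site, were at hand for 34 of the 42 genes and were searched on both strands for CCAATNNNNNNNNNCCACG and for the shorter ERSE-II, ATTGGNCCACG, which also holds CCACG. Manf, Srp19, Ssr2, Hyou1, Atf6, Sec61a1, Srp68 and Spcs3 had no entry. The ERSE was found for 8 of the 34 genes and in 0.119% of all 32851 promoters, and ERSE-II for 2 genes and in 0.0365% of promoters. None of these 34 promoters held both. The elements are shown because they let the fold changes of genes with the same letters be set side by side. They are written 5′ to 3′ on the strand of the gene, with the paired sites in capitals, and an element that starts with CGTGG is the ERSE read on the other strand.
Hspa5, chr2:34772025-34772043, + strand: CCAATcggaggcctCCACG
Calr, chr8:84847075-84847093, - strand: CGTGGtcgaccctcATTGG
Hsp90b1, chr10:86705533-86705551, - strand: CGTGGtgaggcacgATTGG
Hsp90b1, chr10:86705638-86705656, - strand: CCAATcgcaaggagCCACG
Canx, chr11:50325800-50325818, - strand: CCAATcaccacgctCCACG
Pdia6, chr12:17266491-17266509, + strand: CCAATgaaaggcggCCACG
Creld2, chr15:88819520-88819538, + strand: CGTGGcgagcctcaATTGG
Dnajc3, chr14:118937827-118937845, + strand: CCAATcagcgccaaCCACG
Ero1lb, chr13:12565682-12565700, + strand: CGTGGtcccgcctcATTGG
Herpud1, chr8:94386377-94386387, + strand: ATTGGgCCACG
Dnajb11, chr16:22857852-22857862, + strand: ATTGGcCCACG

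The element did not go with one size of fold change. Hspa5, Calr, Hsp90b1, which has 2 elements, Canx and Pdia6 were higher in the first numerator group, whereas Creld2, Dnajc3 and Ero1lb carry the same paired sites and did not pass. The 8 genes had log2 fold changes from 0.07 to 2.08 with a median of 1.35, and the 26 other genes with a promoter entry from -2.02 to 2.01 with a median of 0.84, of which 15 were higher and 1 lower. In the first group 5 of 8 were higher, or 62.5%, and in the second 57.7%, both shares of named genes and not of a random draw. Only exact letters were counted, so the 26 may hold variant elements, and Herpud1 and Dnajb11 with ERSE-II are among them. Relative to the median of genes of like level, all 8 lay above 0, from 0.20 to 0.62, as did 20 of the 26 others. On that scale Dnajc3 and Calr were both at 0.20, and Ero1lb and Hspa5 both at 0.50. Creld2 stood at 0.37 and Hsp90b1 at 0.34. With genes matched on transcript length as well, Dnajc3 stood at 0.42 and Calr at 0.38. Ero1lb was then at 0.50 and Hspa5 at 1.02, and Creld2 at 0.40 and Hsp90b1 at 0.76. These differences were not tested. Of the ERSE-II genes, Herpud1 passed and Dnajb11 did not. The 250 bases before the start site are given for Hspa5 and Hsp90b1, which were higher, and for Dnajc3, which has a full element and a log2 fold change of 0.23, again with the paired sites in capitals. A match of letters is a description and says nothing about whether a factor was bound in these cells.
Hspa5, chr2:34771840-34772089, + strand: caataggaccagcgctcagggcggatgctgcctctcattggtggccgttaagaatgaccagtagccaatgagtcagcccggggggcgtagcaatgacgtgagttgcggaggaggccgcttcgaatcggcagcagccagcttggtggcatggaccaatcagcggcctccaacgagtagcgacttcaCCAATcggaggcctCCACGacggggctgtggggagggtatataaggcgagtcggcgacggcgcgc
Hsp90b1, chr10:86705445-86705694, - strand: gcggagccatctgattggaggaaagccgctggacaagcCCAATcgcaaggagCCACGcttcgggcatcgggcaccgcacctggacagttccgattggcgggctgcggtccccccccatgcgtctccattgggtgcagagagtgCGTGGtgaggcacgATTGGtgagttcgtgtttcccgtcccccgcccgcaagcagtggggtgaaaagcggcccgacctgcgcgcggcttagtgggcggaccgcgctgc
Dnajc3, chr14:118937682-118937931, + strand: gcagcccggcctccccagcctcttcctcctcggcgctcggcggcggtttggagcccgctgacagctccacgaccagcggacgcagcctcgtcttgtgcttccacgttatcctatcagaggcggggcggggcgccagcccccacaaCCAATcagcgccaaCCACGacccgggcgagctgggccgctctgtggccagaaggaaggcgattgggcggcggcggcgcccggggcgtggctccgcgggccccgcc

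Entry into the ER starts with the signal recognition particle, of which 5 protein genes were measured. Srp9 and Srp14, whose products form the part that pauses translation, were both higher. Srp9 went from 103 CPM in the denominator group to 361 CPM in the first numerator group, which the authors' deposited table lists as a log2 fold change of 1.81 (adjusted p = 8.9e-09), and Srp14 from 81.2 to 163 CPM, with an adjusted p of 0.0047. Srp19, which helps to assemble the particle, lay just inside the threshold, listed in the authors' deposited table with 0.75 (adjusted p = 0.049). The large subunits Srp68 and Srp72, which bind each other, had 0.12 and -0.02 there, with adjusted p-values of 0.90 and 1. Subunit genes of this particle thus ranged from -0.02 to 1.81 in the first comparison, and from -0.03 to 0.07 in the second.

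At the channel the genes of the small subunits passed and that of the pore did not, a difference between subunits for which no test can be had. Sec61b, which encodes a small tail-anchored subunit, went from 319 CPM in the denominator group to 1286 CPM in the first numerator group, which the authors' deposited table lists as 2.01 (adjusted p = 3.0e-11). Sec61g, the other small subunit, has a listed value of 1.98 (adjusted p = 2.6e-11) in the authors' deposited table. Sec61a1, which forms the pore, did not pass, listed in the authors' deposited table with 0.67 (adjusted p = 0.088), nor did its paralog Sec61a2 at -0.29, or Sec62 at 0.30 and Sec63 at -0.29, whose products help chains that enter after translation. In the translocon-associated protein complex, which sits beside the channel, Ssr4 at 1.58 (adjusted p = 2.2e-07), Ssr2 at 1.19 and Ssr3 at 0.83 were higher in the authors' deposited table, and Ssr1 at 0.41 did not pass. For signal peptidase, Spcs1 at 1.53 (adjusted p = 1.8e-06) and Spcs2 at 1.32 (adjusted p = 0.00011) were higher in the authors' deposited table, and Spcs3 at 0.65 (adjusted p = 0.11) did not pass.

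**Figure D2:**
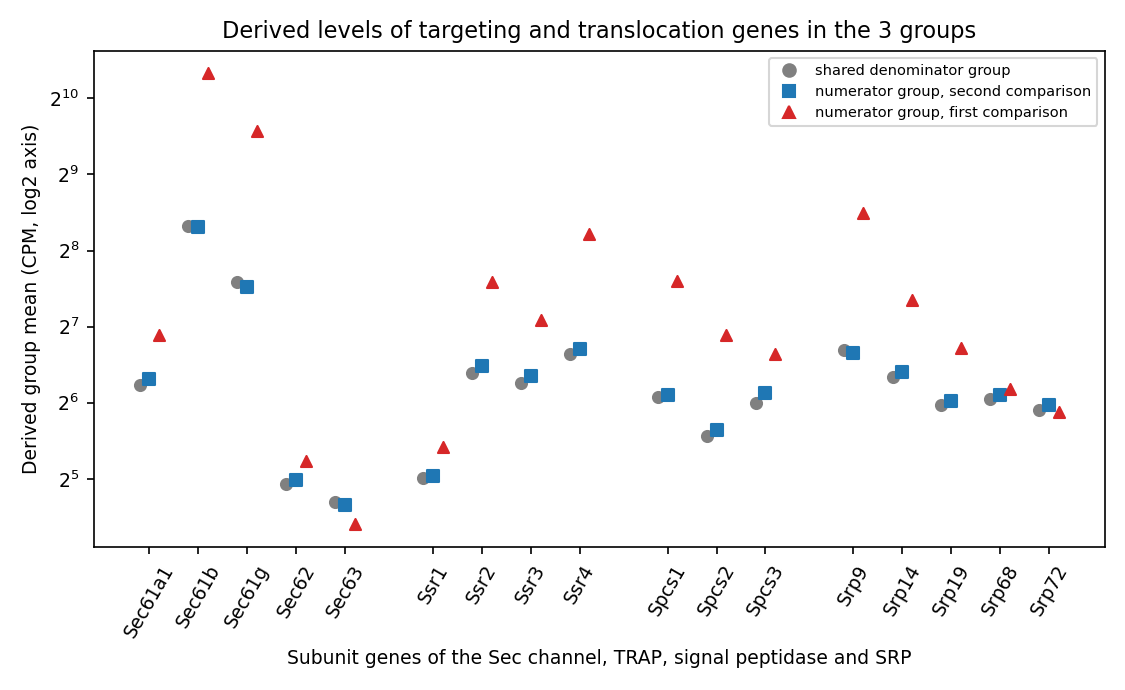
Derived group means in CPM (y axis, log2 scale) of subunit genes of the Sec channel, the translocon-associated protein complex, signal peptidase and the signal recognition particle (x axis) in the 3 groups, to be compared within a gene and not between genes. Grey circles and blue squares nearly coincide for each gene, while red triangles reach 1286 CPM for Sec61b and stay at the grey circle for Srp72.

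The stress genes did not form one pattern. Atf4, the transcription factor of the PERK branch, went from 69.4 CPM in the denominator group to 162 CPM in the first numerator group, which the authors' deposited table lists as 1.23 (adjusted p = 0.00021). For Xbp1, whose message IRE1 splices, the authors' deposited table lists 0.85 (adjusted p = 0.025), and for Herpud1, a membrane protein of ER-associated degradation, 0.83 (adjusted p = 0.030). A value per gene does not separate spliced from unspliced Xbp1, and none of these values measures protein. Ddit3, which encodes CHOP, the factor known from unresolved stress, stood at 30.9, 30.7 and 31.7 CPM in the denominator, second and first numerator groups, and the authors' deposited table lists 0.04 for it (adjusted p = 1). Atf6, the sensor itself, did not pass, and the authors' deposited table lists -1.07 for it (adjusted p = 0.077).

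The size of the difference followed the level of the gene in this comparison, for ER genes and for others alike. Over the 42 genes, Spearman's rho between the log2 fold change and the derived level in the denominator group was 0.84, and over 12602 other genes it was 0.35. Both are descriptions across genes of the same libraries, and levels between genes are not scaled to length here. At 6 to 7 log2 CPM in the denominator group 15 of 19 ER genes were higher, or 78.9%, where 67.3% of all genes of that level were, small RNA genes left out. Above 7 log2 CPM all 3, Sec61b, Sec61g and Calr, were higher, as were 98.3% of genes there. At 5 to 6 log2 CPM 5 of 11 were higher, or 45.5%, against 16.1% of genes, and at 4 to 5 log2 CPM none of 7, against 9.16%. The share of higher ER genes was thus near that of all genes above 6 log2 CPM, above it at 5 to 6 and below it at 4 to 5.

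**Figure D3:**
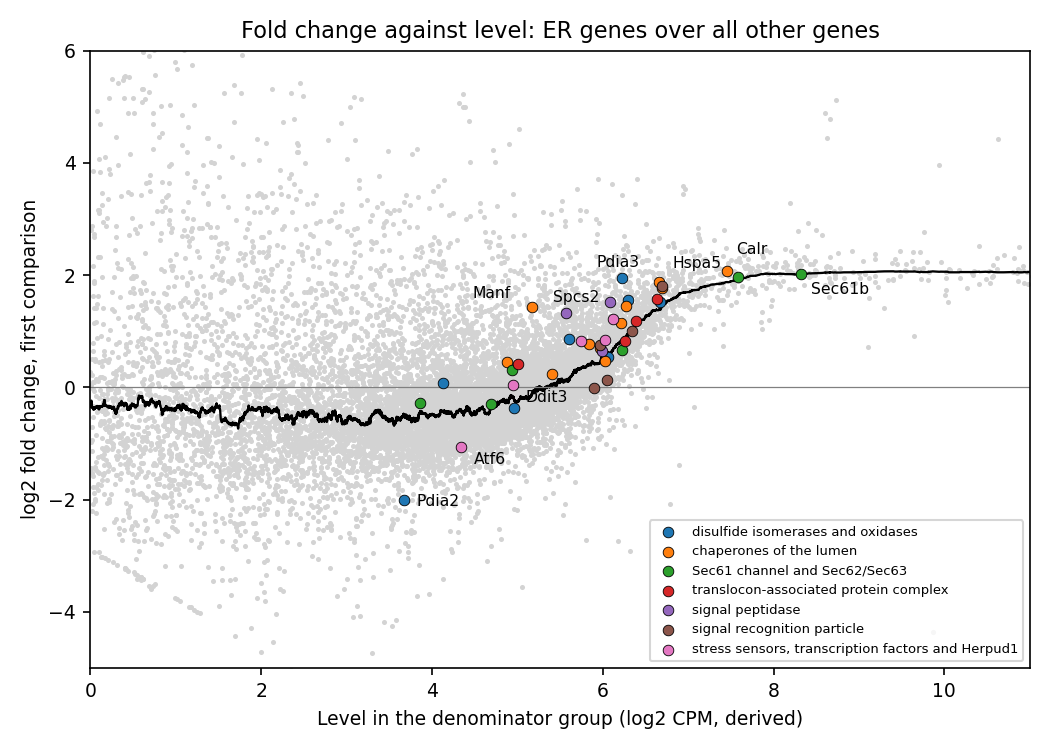
Log2 fold change in the first comparison (y axis) against the derived level in the denominator group (x axis, log2 CPM) for the 42 ER genes, colored by role, and for other genes in grey, with rows beyond the axes not drawn; the black line is the median of the 200 genes nearest in level. The line climbs from below 0 to about 2.02 at the level of Sec61b, and most ER genes lie near or above it.

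Relative to the median of the 200 other genes nearest in level, small RNA genes left out, the 42 ER genes had a median of 0.24, with 32 above 0 and 10 below. Only 4 lay more than 1 log2 unit from it. Manf was 1.55 above, Spcs2 1.20 above and Pdia3 1.12 above, and Pdia2 stood at -1.49. Calr, Sec61b and Sec61g, which had the largest fold changes of all 42, were 0.20, -0.01 and 0.04 from genes of their level. The pore gene Sec61a1, at -0.15, was also near genes of its level. Hspa5 was 0.50 and Hsp90b1 0.34 above. With genes matched on level and on transcript length the median was 0.39, Hspa5 came to 1.02 above and Hsp90b1 to 0.76, and Calr, Sec61b and Sec61g to 0.38, 0.31 and 0.28 above. By role, the median relative to level was 0.94 for the Spcs genes of signal peptidase, 0.34 for chaperones and 0.32 for disulfide enzymes. It was 0.29 for the stress genes, 0.11 for the translocon-associated protein complex and 0.04 for the Sec genes. For the signal recognition particle it was 0.01, where Srp68 and Srp72 lay at -0.48 and -0.44. Sec11a and Sec11c, signal peptidase genes outside the 42, lay at -0.06 and -0.30. The part of level and of length in the differences was not tested.

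**Figure D4:**
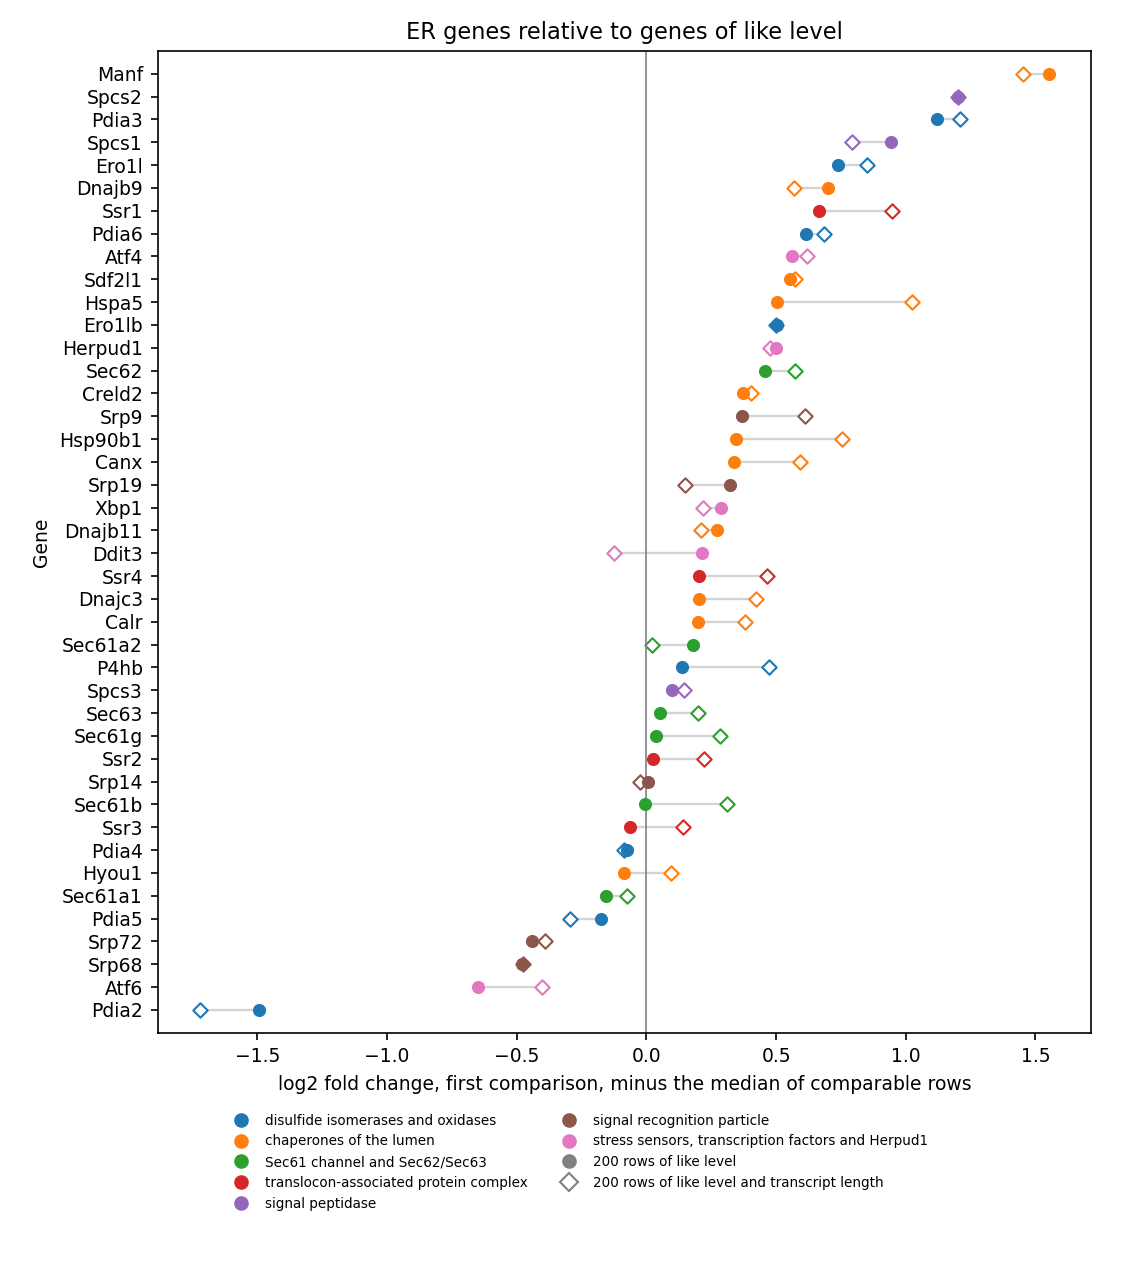
Log2 fold change of each ER gene (y axis) in the first comparison after subtracting the median of the 200 other genes nearest in level (filled circles) or nearest in level and transcript length (open diamonds), on the x axis. Manf, Spcs2 and Pdia3 lie more than 1 above 0 by both, Pdia2 more than 1 below, and Calr, Sec61b and Sec61g lie near 0 by level.

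Other genes of the route were described from 8 lists of related genes, 109 of whose 121 symbols were in the table. In the first comparison 28 of them, or 25.7%, were higher and 1 was lower, where 18.8% of all genes were higher and 3.49% lower. Their median log2 fold change was 0.25, and 54 of the 109 lay above the median of genes of like level and 55 below. The oligosaccharyltransferase, which attaches glycans beside the channel, was higher for 7 of 11 genes, led by Ost4 at 2.29 and Rpn1 at 1.45 in the authors' deposited table. Integrated stress response genes, which ATF4 can drive, were higher for 6 of 15. Among them were the amino acid transporter gene Slc3a2 at 1.56 and Phgdh, of serine synthesis, at 1.34 in the authors' deposited table. The 9 that did not pass included Psat1 at 0.46, Asns at 0.07 and Atf5 at -0.06 in the authors' deposited table. Relative to genes of like level 11 of the 15 lay above 0 and 4 below, with Slc3a2 at 1.38 and Phgdh at -0.68. Of ER-associated degradation 4 of 17, or 23.5%, were higher, near the share of all genes. They were led by Vcp, the ATPase that pulls proteins from the membrane, at 2.07 and Derl1 at 1.43 in the authors' deposited table. Relative to genes of like level Vcp stood at 0.08 and Derl1 at 1.09. Other folding enzymes were higher for 4 of 22, or 18.2%, no more than the share of all genes, with a median of -0.02 relative to genes of like level, led by the proline isomerase gene Ppib at 1.83 and Tmx2 at 1.48 in the authors' deposited table.

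By the same rule 18.8% of all genes were higher and 3.49% lower, the shares to set beside the lists that follow. Among the other sensors and their processing, 1 of 9 genes was higher and 1 lower, or 11.1% each. The lower one was Ern1, the gene of IRE1, which went from 33.6 CPM in the denominator group to 11.4 CPM in the first numerator group, which the authors' deposited table lists as -1.56 (adjusted p = 0.00033). Relative to genes of its level Ern1 stood at -1.38. The higher one was Eif2s1, the translation factor that PERK phosphorylates, at 1.48 in the authors' deposited table, which lists -0.56 (adjusted p = 0.45) for Eif2ak3, the gene of PERK. The sensor genes Ern1, Eif2ak3 and Atf6 thus had negative fold changes in the first comparison, of which that of Ern1 passed. Their lumenal partner Hspa5 was higher. Genes of like level had medians of -0.51 for Eif2ak3, -0.42 for Atf6 and 1.38 for Hspa5. Relative to these, Eif2ak3 stood at -0.05, Atf6 at -0.65 and Hspa5 at 0.50. Another list held the receptor of the signal recognition particle, other insertion factors and the signal peptidase genes Sec11a and Sec11c. In it 3 of 12 genes were higher, Get4 at 1.25, Srpr at 1.16 and Sec11c at 0.98 in the authors' deposited table. Glycan trimming was higher for 2 of 11 genes, Mcfd2 at 0.94 and Prkcsh at 0.82 in the authors' deposited table. The COPII coat was higher for 1 of 12, Sec13 at 0.77 in the authors' deposited table. No gene of these lists passed in the second comparison.

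Markers of other cells moved in the same comparison. All 10 of 10 resident macrophage markers were higher, and their summed level was 123 CPM in the denominator group, 48.8 CPM in the second numerator group and 3450.1 CPM in the first. All 9 of 9 measured megakaryocyte markers were higher, with sums of 194, 138 and 1595 CPM in the same order. Markers of primary neutrophil granules were higher for 5 of 5, with 614, 652 and 2730 CPM. All but Ms4a3 encode granule cargo that passes through the ER. Their levels in the denominator group were 6.69 to 7.13 log2 CPM. Of all genes 67.3% were higher at 6 to 7 log2 CPM and 98.3% above 7, small RNA genes left out. Relative to genes of like level their median was 0.60, with 4 above 0 and 1 below. That median was 5.47 for macrophage and 2.87 for megakaryocyte markers. Eosinophil markers were higher for 4 of 6 (342, 353 and 1645 CPM), erythroid ones for 5 of 8 with 1 lower (1642, 1739 and 28619 CPM), and T and NK cell ones for 1 of 4 with 3 lower. B lineage markers were lower for 7 of 10 (537, 447 and 228 CPM) and those of mast cells and basophils for 3 of 6. Of 6 measured plasma cell markers, a cell type rich in ER, none was higher and 1 was lower, with sums of 75.3, 71.0 and 37.6 CPM. The erythroid sum was the largest of these in the first numerator group. The part of erythroid cells, macrophages, megakaryocytes and granule-forming cells in the ER genes' values was not tested.

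Some of the genes share exon bases with a neighbor on the other strand in the GENCODE annotation of GRCm38, and no source used here states that reads were counted by strand. The overlap covers 19.5% of the exon bases of Spcs1 (with Glt8d1), 14.7% of Hsp90b1, 35.9% of Sec61a2 (with Nudt5) and 17.3% of Sec61a1. It covers 12.8% of Sec62, 7.64% of Ddit3 and 6.74% of Manf, and less than that of Sec63, Pdia6, Pdia3 and Dnajb9. How far reads of the neighbors enter the values of these genes was not tested.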

How the data were processed

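Per the labels' protocols, libraries were built from 0.1 ug of total RNA with the TruSeq RNA kit of Illumina. Bowtie 0.12.2 and the build mm8 are named in the submitters' processing notes, without roles. The sources used here name no counting program, annotation or test, and depth per library is unknown. Per the file headers, the deposited table of the authors holds log fold changes, read as log2 values, mean log2 CPM, p-values and false discovery rates. The deposited p-values, adjusted here by Benjamini-Hochberg over 12791 genes, gave the deposited rates to within 5.2e-14.

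Computed here (Python 3.11.15, pandas 2.3.3) were group levels from the mean and fold change, with weights of 0.48 and 0.59 for the numerator groups (fitted on genes above 3 log2 CPM), like-level medians over 200 genes and promoter matches. The functions were tested on simulated data. Transcript length is the longest protein-coding transcript in GENCODE's basic set. Full values go to the 3 genes with the smallest p per role, lower genes, 6 fixed genes and those over 1 log2 from their level; of each other list, the 2 smallest p per direction past the threshold were named. Srp19, Creld2, Sec61a1, Eif2ak3 and other genes beyond this were named after their values were seen. Members and lists were chosen with earlier results of these data known. Tests per library could not be run.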

Additional observations from a re-analysis of the deposited data

How the results depend on the processing

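The number of ER genes past the threshold in the first comparison was 24, and it ranged from 18 (adjusted p under 0.01, or Benjamini-Yekutieli adjustment) to 28 (adjusted p under 0.1), with 19 at an absolute log2 fold change of at least 1, 25 over genes of at least 3 log2 CPM and 24 without small RNA genes. It was 0 in the second comparison under the same 6 alternatives. The median log2 fold change of 0.83 in the first comparison reversed to -0.66 with groups scaled to equal totals, by construction of that scaling. It was 0.97 relative to the median of all genes and 0.24 relative to genes of like level. Alternatives chosen after seeing the data gave 0.39 with level and transcript length, 0.24 with the nearest 100 genes and 0.26 with the nearest 400. The derived difference of the numerator groups, 0.72, became -0.81 at equal totals and 0.83 relative to all genes. The median of 0.07 in the second comparison lay between 0.03 and 0.11 under its alternatives. No paired analysis was possible because the table holds no value per library, and for the same reason leaving out single libraries was not run. Depth per library is unknown, so a missed threshold in a gene of low level, such as Atf6 or Sec61a2, cannot be set against its precision.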
